A study of Rattus norvegicus with 15 samples.

Results

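The genes described here are the 6 rat genes for the enzymes that write and remove DNA methylation, namely Dnmt1, Dnmt3a, Dnmt3b, Tet1, Tet2 and Tet3. Every probe set whose annotated symbol was one of these 6 and no other was taken, which gave 9 probe sets of the 31099 on the array, against 14218 genes with a probe set of their own in all. The group was chosen from measured values: Dnmt3a was selected on its signal, which was lower in water deprivation than in control, and so all member values in that contrast are given as a description without a test. A probe set is a group of short oligonucleotides on an Affymetrix rat array that are read together as 1 signal, and each probe set is described separately because levels of different probe sets cannot be set against each other. The number before "_at" is its identifier.

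The arrays held RNA of the subfornical organ, a small structure on the wall of a brain ventricle that lacks a blood-brain barrier and takes part in sensing the body's fluid state. The animals were male Sprague Dawley rats, a laboratory outbred stock, aged 10 to 12 weeks. Of 15 arrays, 5 were of water deprivation, 5 of food deprivation and 5 of control animals, and each array held RNA pooled from 5 animals. Food deprivation lasted 48 h according to its samples' labels, while for water deprivation the sources used here give no length. The design text, read literally, has the animals of each condition denied food for that time, and whether this covers the control and water-deprived animals cannot be told apart from the labels. The pools hold all cell types of the dissected tissue, so fewer cells of a type and less RNA per cell cannot be told apart.

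DNA methylation in mammals is a methyl group on cytosine, mostly where a cytosine is followed by a guanine. Dnmt3a and Dnmt3b place new methyl groups, and Dnmt1 copies the pattern onto the new strand when DNA is replicated. Tet1, Tet2 and Tet3 oxidise the methylated cytosine, which starts its removal by base excision repair or its loss through replication. In mouse neurons Dnmt3a is also known to methylate cytosines outside the CG context after birth.

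Values are signal intensities scaled by the submitters, with the same trimmed mean signal on every array. Differences between groups are on the log2(signal + 16) scale, which understates the change of dim probe sets. The arrays fell into 2 sets by the Actb and Gapdh controls on each array, whose signal at the 5′ end relative to the 3′ end of the transcript reflects RNA integrity and the amplification. The mean log2 ratio was -0.78 and -0.72 in water-deprived arrays 1 and 2 and -0.86 to -0.71 in the 5 food-deprived arrays, called the high set. It was -2.81 to -1.28 in water-deprived arrays 3 to 5 and -1.67 to -1.24 in the 5 control arrays, called the low set. No set held both food-deprived and control arrays, so a food-deprivation difference adjusted for the set rests on the difference between the water-deprived arrays of the 2 sets. Of 60 cell type markers, 53 could be tested in food deprivation minus control: 1 was higher, the endothelial tight-junction gene Cldn5 (0.64, SE 0.18, limma adjusted p = 0.0407), and 0 were lower. Over the 11510 genes tested by 1 probe set each, 3.12% were higher and 2.62% lower, so few calls were to be found among the markers by the general share alone. The summed signal of the neuronal markers spanned 6014 to 10523 in water deprivation, 6850 to 11438 in food deprivation and 4304 to 13050 in control. That of the choroid plexus and ependymal markers spanned 2050 to 10613 in water deprivation, 5007 to 9424 in food deprivation and 3163 to 6577 in control, with median differences of 1.02 in food deprivation minus control and 1.86 in the high minus the low set. The oligodendrocyte markers, with summed signals of 4844 to 13070 in water deprivation, 10977 to 15515 in food deprivation and 5403 to 15169 in control, had median differences of 0.65 and 0.72 in the same contrasts. The part of these lists in the results below was not tested. For the subfornical organ itself no marker list was drawn up, so the dissection is known from the labels only.

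Dnmt3a, which places new methyl groups, was lower in food deprivation than in control on both of its probe sets. Probe set 1384804_at read 27.3, 25.9, 62.1, 29.3 and 69.9 in the 5 water-deprived arrays, 19.9, 20.8, 15.5, 22.0 and 18.0 in the 5 food-deprived arrays, and 112, 105, 79.7, 98.6 and 99.1 in the 5 control arrays. The 3 groups did not overlap: every control array lay above every water-deprived array, and every water-deprived array lay above every food-deprived array. Of all probe sets tested, 5.61% had all food-deprived arrays below all controls, and 1.47% had all water-deprived arrays above all food-deprived ones. The means were 42.9 ± 21.3 in water deprivation, 19.3 ± 2.55 in food deprivation and 98.9 ± 12.0 in control (SD, n = 5 each).

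**Figure D1:**
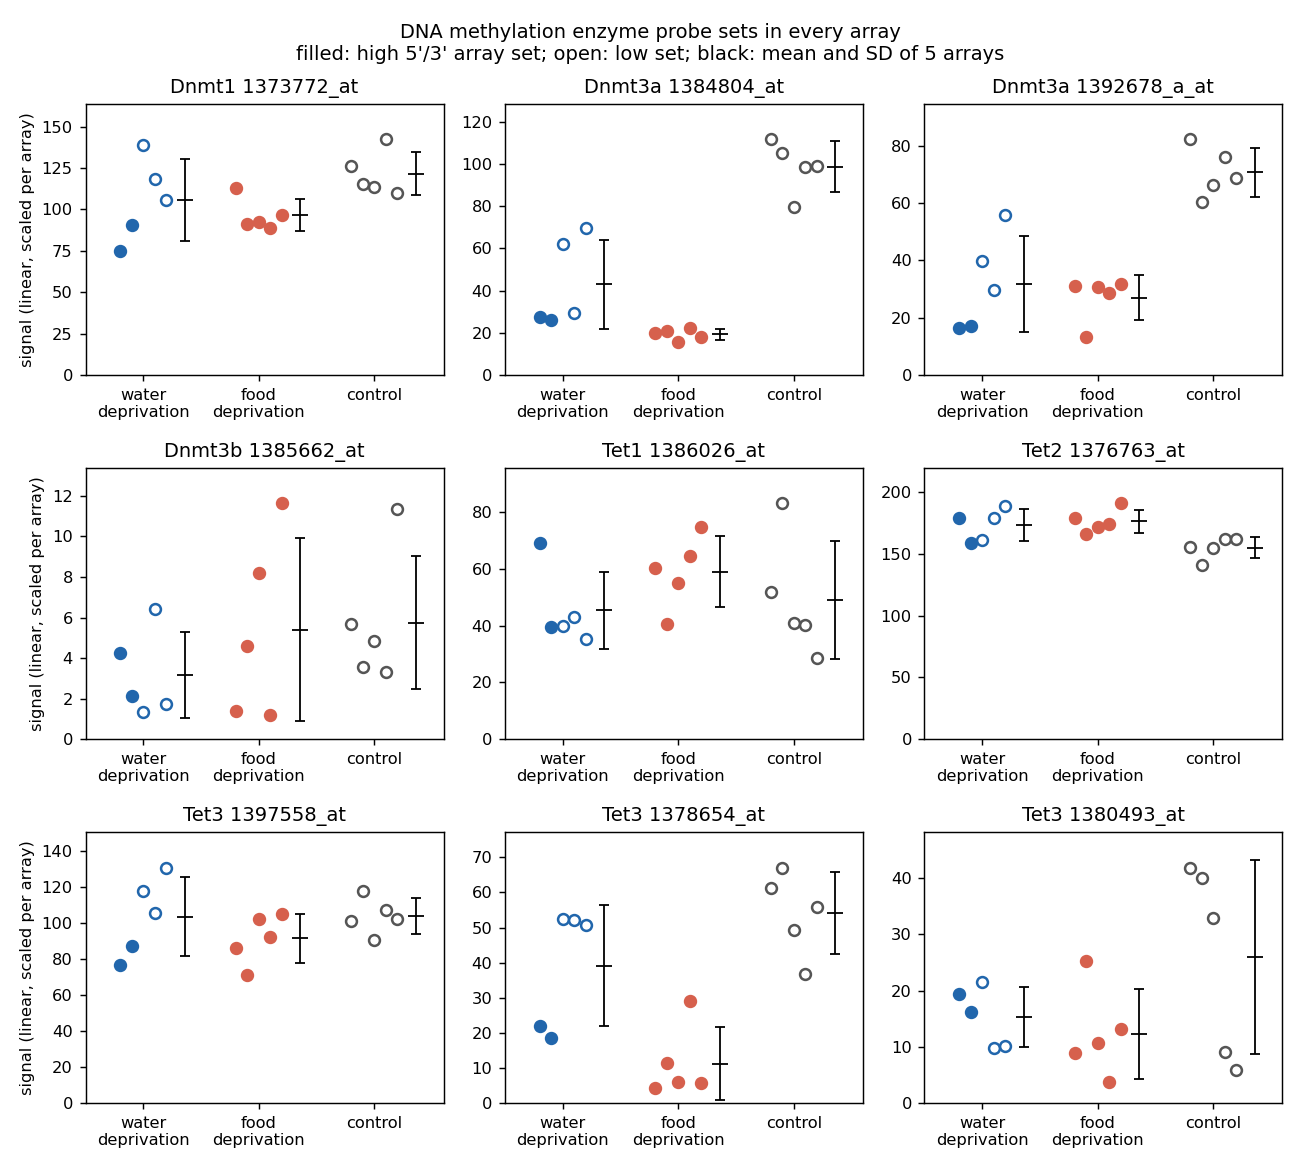
Signal (linear axis from 0, scaled per array) of the 9 probe sets of the DNA methylation enzymes in each of 15 arrays, by group, with water deprivation left, food deprivation in the middle and control right; filled points are arrays of the high set, open points arrays of the low set, and black marks give the mean and SD of each group (n = 5). In Dnmt3a 1384804_at the control arrays sit between 79.7 and 112, above all water-deprived arrays (25.9 to 69.9), and the food-deprived arrays sit lowest (15.5 to 22.0).

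The other Dnmt3a probe set, 1392678_a_at, whose suffix marks probes shared by several transcripts of the gene, read 16.2, 17.1, 39.9, 29.8 and 56.1 in water deprivation, 31.0, 13.3, 30.6, 28.5 and 31.7 in food deprivation, and 82.4, 60.3, 66.2, 76.1 and 68.9 in control. Here too every control array lay above every deprived array, whereas the water-deprived and food-deprived arrays overlapped. For food deprivation and control alone, 5.61% of all probe sets tested separated in this direction. The means were 31.8 ± 16.7 in water deprivation, 27.0 ± 7.78 in food deprivation and 70.8 ± 8.62 in control (SD, n = 5 each). Food-deprived array 2, at 13.3, stood apart from the other 4 of its group, which spanned 28.5 to 31.7.

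Food deprivation minus control shares its control arrays with the contrast that led to the choice of Dnmt3a. In it, probe set 1384804_at was lower by -1.70 on the log2 scale (SE 0.19, 95% interval -2.09 to -1.30, limma adjusted p = 0.000616), or 3.25-fold in signal + 16. Every fold value given for a member is of signal + 16. It understates the fold of the signal itself, whose means here were 19.3 in food deprivation and 98.9 in control. The choice of Dnmt3a for a high signal in these same controls favoured a lower value in this contrast beforehand, so its p-values are not independent of the choice. Probe set 1392678_a_at was lower by -1.03 (SE 0.20, 95% interval -1.46 to -0.60, limma adjusted p = 0.00837), or 2.04-fold in signal + 16. Over all probe sets tested, 4.77% were higher (1037) and 3.76% lower (817) of the 21729 tested in this contrast.

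The estimate of the food-deprivation difference changed when the array set was added to the fit. Food deprivation could not be compared with control inside either set. With the set as a term in the fit, probe set 1384804_at differed by -1.04 (SE 0.26, 95% interval -1.60 to -0.49, limma adjusted p = 0.471). Probe set 1392678_a_at differed by -0.23 (SE 0.26, 95% interval -0.79 to 0.33, limma adjusted p = 0.804). Both estimates stayed below 0 and neither passed, and the interval of 1392678_a_at held both directions. With each array left out in turn the first spanned -1.22 (without water-deprived array 5) to -0.76 (without water-deprived array 4), and the second -0.40 to -0.070 without the same arrays. In that fit 0% of the 21729 probe sets passed in food deprivation minus control, so it made no call for any gene.

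In the water-deprived arrays alone, which hold both sets, Dnmt3a was dimmer in the high set. The fitted difference of the high minus the low set was -0.66 for 1384804_at (SE 0.21) and -0.80 for 1392678_a_at (SE 0.22), given as a description because these arrays had entered the choice of the gene. Water-deprived arrays 1 and 2 of the high set read 27.3 and 25.9 on 1384804_at, while array 4 of the low set read 29.3 and arrays 3 and 5 read 62.1 and 69.9.

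**Figure D2:**
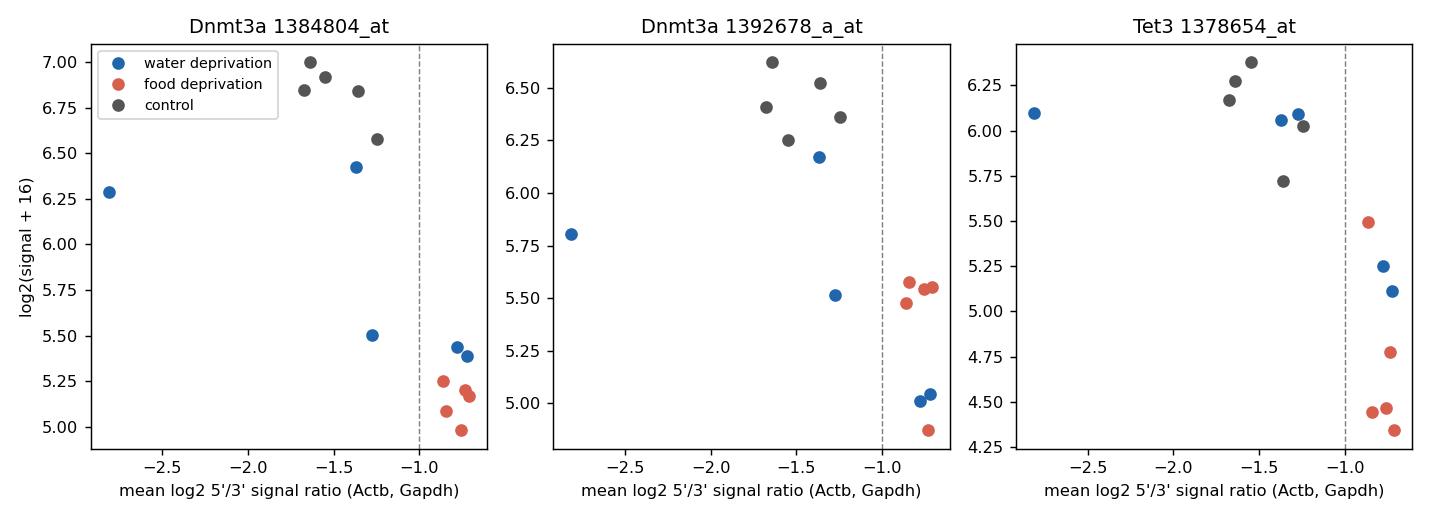
Log2(signal + 16) of both Dnmt3a probe sets and of Tet3 1378654_at against the mean log2 5′/3′ signal ratio of the Actb and Gapdh control probe sets in each of the 15 arrays, coloured by group, with a dashed line at -1 that divides the 2 array sets. The 5 food-deprived arrays lie right of the line and the 5 control arrays left of it, and the water-deprived arrays lie on both sides.

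Water deprivation minus control is the contrast from which Dnmt3a was chosen, so its values are a description. Dnmt3a 1384804_at differed by -1.03, or 2.04-fold lower, and 1392678_a_at by -0.92, or 1.90-fold lower, with 5 of 5 water-deprived arrays below the lowest control array on each. Within the low set alone, the 3 water-deprived arrays read 29.3 to 69.9 on 1384804_at against 79.7 to 112 in the 5 controls, a difference of -0.77. On 1392678_a_at the same 3 arrays read 29.8 to 56.1 against 60.3 to 82.4 in the controls, a difference of -0.60. All 3 water-deprived arrays of the low set were therefore below all controls of the same set on both probe sets. The choice of Dnmt3a from this contrast favoured such a separation beforehand. How many of all probe sets separate in this way, over all arrays or within a set, was not counted here.

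Water deprivation and food deprivation share no array, but the water-deprived arrays had already entered the choice, so the Dnmt3a values of this contrast are a description as well. Probe set 1384804_at was 0.67 higher in water deprivation than in food deprivation (SE 0.19), and 1392678_a_at differed by 0.10 (SE 0.20). Within the high set, water-deprived arrays 1 and 2 read 25.9 to 27.3 on 1384804_at against 15.5 to 22.0 in the food-deprived arrays (0.27), but 16.2 to 17.1 on 1392678_a_at against 13.3 to 31.7 (-0.38). On the first probe set these 2 arrays lay above all food-deprived arrays, and on the second they lay inside their range.

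The promoter of Dnmt3a is shown because both of its probe sets were lower in food deprivation, and because methylation acts on CG dinucleotides, the substrate of the encoded enzyme. The window is from RefSeq (build GRCr8, chr6:32598352-32598651, plus strand), runs from 250 bases before to 50 after the start of the gene, and has the CG dinucleotides in capitals.
Dnmt3a promoter: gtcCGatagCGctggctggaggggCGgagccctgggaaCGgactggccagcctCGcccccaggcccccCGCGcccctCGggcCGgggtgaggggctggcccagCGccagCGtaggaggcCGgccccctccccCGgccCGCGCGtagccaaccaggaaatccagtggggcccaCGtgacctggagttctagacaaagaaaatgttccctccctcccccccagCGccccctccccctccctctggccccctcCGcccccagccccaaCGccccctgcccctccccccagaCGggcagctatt
This window holds 21 CG dinucleotides at 74.3% G and C, and 22.6% of the 33469 windows of the same length hold as many or more, with a median of 7. It has 2 matches to GGGCGG, the GC box, on either strand, which 33.1% of all windows contain, and 1 match to CACGTG, the E-box, which 6.42% contain. These matches describe the letters only, and no methylation or binding was measured in these samples.

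Tet3, which in mouse is known to oxidise the paternal genome after fertilisation, had 3 probe sets whose differences were unlike in size. Probe set 1378654_at read 22.0, 18.6, 52.4, 52.3 and 50.6 in water deprivation, 4.29, 11.4, 6.15, 29.1 and 5.73 in food deprivation, and 61.4, 67.1, 49.2, 36.8 and 55.9 in control. All food-deprived arrays lay below all control arrays, as in 5.61% of all probe sets tested. The water-deprived arrays split into 2 low values in the high set and 3 values in the range of the controls. The means were 39.2 ± 17.3 in water deprivation, 11.3 ± 10.3 in food deprivation and 54.1 ± 11.7 in control (SD, n = 5 each).

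In food deprivation minus control 1378654_at of Tet3 was lower by -1.41 (SE 0.24, 95% interval -1.93 to -0.89, limma adjusted p = 0.00485), or 2.65-fold. Its food-deprived mean log2 value of 4.71 lay below 5.11, the lowest mean over all arrays at which a probe set was tested. It was tested only through its higher water-deprived and control values, so its differences from food deprivation are a description. With the array set as a term it differed by -0.51 (SE 0.33, 95% interval -1.22 to 0.20, limma adjusted p = 0.653). The high set was lower than the low set on it by -0.90 in the water-deprived arrays (SE 0.27, limma adjusted p = 0.0373). In water deprivation minus food deprivation it differed by 1.02 (SE 0.24, 95% interval 0.50 to 1.53), which did not pass over all probe sets (limma adjusted p = 0.0828). Within the high set the water-deprived arrays read 18.6 to 22.0 against 4.29 to 29.1 in food deprivation, so they overlapped, and within the low set 50.6 to 52.4 against 36.8 to 67.1 in control.

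The brighter Tet3 probe set, 1397558_at, read 77.1, 87.3, 118, 106 and 131 in water deprivation, 86.3, 71.5, 103, 92.3 and 106 in food deprivation, and 101.1, 118, 90.7, 108 and 103 in control, and the 3 groups overlapped. Food deprivation minus control was -0.16 (SE 0.13, limma adjusted p = 0.465), and water deprivation minus food deprivation was 0.14 (SE 0.13, limma adjusted p = 0.623). The dim probe set 1380493_at, which fell below the filter and was not tested, spanned 9.84 to 21.5 in water deprivation, 3.86 to 25.3 in food deprivation and 5.92 to 41.8 in control. The lower signal of Tet3 in food deprivation therefore rests on 1 of 3 probe sets, and which transcripts each probe set reads was not analysed here.

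RefSeq gives Tet3 several transcript starts, and the window with the most CG dinucleotides is shown beside that of Dnmt3a (GRCr8, chr4:117520996-117521295, minus strand, CG dinucleotides in capitals).
Tet3 promoter: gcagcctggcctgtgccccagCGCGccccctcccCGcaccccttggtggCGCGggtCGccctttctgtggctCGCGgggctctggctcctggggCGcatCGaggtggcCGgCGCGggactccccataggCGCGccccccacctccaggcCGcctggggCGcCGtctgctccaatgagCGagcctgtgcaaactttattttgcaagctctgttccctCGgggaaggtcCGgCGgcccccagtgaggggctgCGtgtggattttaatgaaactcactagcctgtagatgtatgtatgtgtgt
It holds 23 CG dinucleotides at 66.7% G and C, where 19.5% of windows hold as many or more, and it has 0 matches to GGGCGG and 0 to CACGTG. The other Tet3 windows hold 3 to 15 CG dinucleotides. The window of Dnmt1 holds 17 and that of Tet2 holds 39, which 3.76% of all windows reach, and those of Tet1 hold 3 to 16.

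Dnmt1, the maintenance methyltransferase, was measured by probe set 1373772_at at 74.6, 90.3, 139, 118 and 106 in water deprivation, 113, 91.4, 92.1, 88.8 and 96.5 in food deprivation, and 126, 115, 114, 142 and 110.0 in control. The groups overlapped, since food-deprived array 1 at 113 lay above the lowest control at 110.0. The means were 105 ± 24.7 in water deprivation, 96.4 ± 9.69 in food deprivation and 122 ± 13.2 in control (SD, n = 5 each). Food deprivation minus control was -0.29 (SE 0.13, limma adjusted p = 0.168) and water deprivation minus food deprivation was 0.092 (SE 0.13, limma adjusted p = 0.768), so neither difference passed. With the array set as a term the food-deprivation difference was 0.18 (SE 0.17, limma adjusted p = 0.763), the other direction. Dnmt1 was lower in the high than in the low set of the water-deprived arrays (-0.47, SE 0.14, limma adjusted p = 0.0370).

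Tet2, known for its mutations in human blood cancers, read 179, 159, 162, 179 and 189 in water deprivation, 179, 166, 171, 174 and 191 in food deprivation, and 155, 141, 155, 162 and 162 in control on probe set 1376763_at. Every food-deprived array lay above every control array, as in 9.84% of all probe sets tested, while the water-deprived arrays overlapped both groups. The means were 173 ± 12.8 in water deprivation, 176 ± 9.45 in food deprivation and 155 ± 8.37 in control (SD, n = 5 each). The food-deprivation difference from control was 0.17 (SE 0.080) and did not pass over all probe sets (limma adjusted p = 0.192), and it was 0.23 with the array set as a term (SE 0.13, limma adjusted p = 0.638). Water deprivation minus food deprivation was -0.023 (SE 0.080, 95% interval -0.19 to 0.15, limma adjusted p = 0.919). The high and low sets differed by -0.056 on Tet2 (SE 0.11, limma adjusted p = 0.757).

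Tet1, which acts on methylated cytosine like Tet2 and Tet3, gave 69.2, 39.6, 39.8, 43.2 and 35.2 in water deprivation, 60.4, 40.7, 55.0, 64.4 and 74.7 in food deprivation, and 51.9, 83.1, 40.9, 40.1 and 28.7 in control on probe set 1386026_at. The groups overlapped, and the controls had the widest spread. Food deprivation minus control was 0.24 (SE 0.20, limma adjusted p = 0.463), and water deprivation minus food deprivation was -0.30 (SE 0.20, limma adjusted p = 0.480).

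Dnmt3b, the other enzyme that places new methyl groups, was at the bottom of the scale. Its single probe set 1385662_at spanned 1.34 to 6.40 in water deprivation, 1.17 to 11.6 in food deprivation and 3.32 to 11.4 in control, so the groups overlapped. Its mean log2 value of 4.36 over all arrays lay below the filter at 5.11, so it was not tested. Tet3 1380493_at, at 5.01, lay closest below that filter, and Tet3 1378654_at, at 5.51, closest above it. Tet3 1378654_at passed through its water-deprived and control means of 5.72 and 6.11, while its food-deprived mean of 4.71 lay below the filter.

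**Figure D3:**
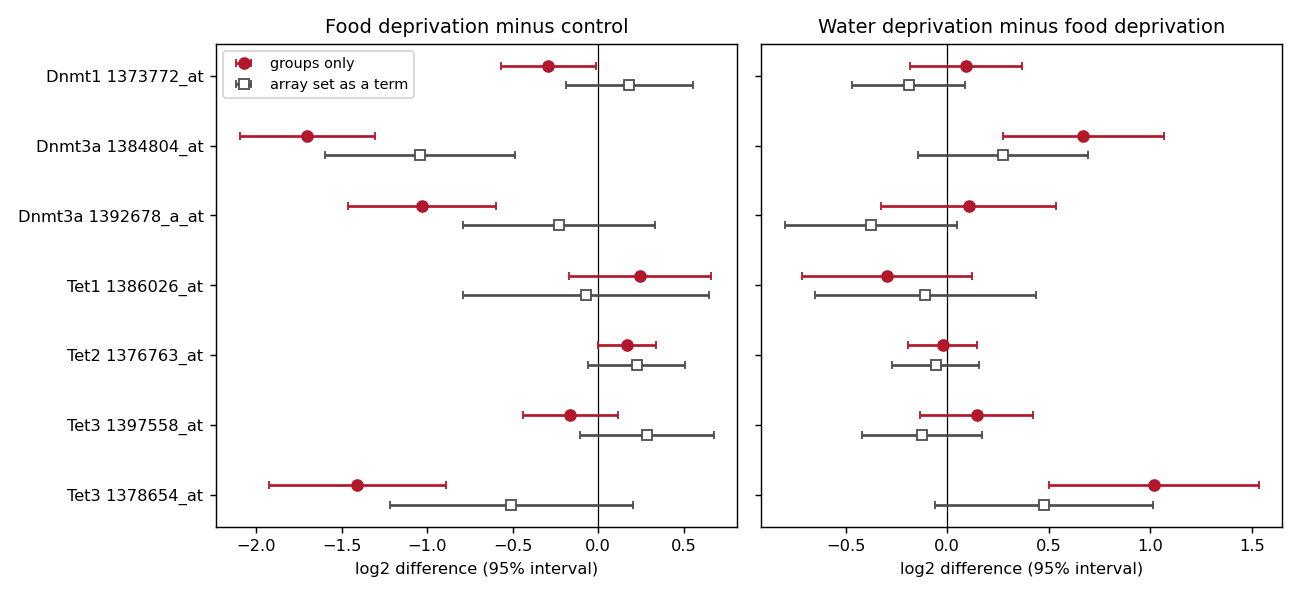
Log2 difference with 95% interval for each of the 7 tested member probe sets in food deprivation minus control and water deprivation minus food deprivation, without and with the array set as a term in the fit. In food deprivation minus control both Dnmt3a probe sets (-1.70 and -1.03) and Tet3 1378654_at (-1.41) lie left of 0, and with the term they lie at -1.04, -0.23 and -0.51.

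Counted over the enzymes, 7 of the 9 probe sets were tested, and 3 of these were lower and 0 higher in food deprivation than in control (4 of the 7 had an unadjusted p under 0.05). That count holds both probe sets of Dnmt3a, a gene chosen on the same control arrays. Without Dnmt3a, 1 of 5 was lower (Tet3 1378654_at) and 0 were higher, beside 3.76% and 4.77% of all probe sets, and 2 of the 5 had an unadjusted p under 0.05. The food-deprived mean of Tet3 1378654_at lay below the filter, which it passed through the other groups, so this count is a description. The median difference of these 5 was -0.16, and that of all probe sets was 0.046. In Tet3 1378654_at and both probe sets of Dnmt3a the food-deprived arrays all lay below the controls, as in 5.61% of all probe sets, and in Tet2 they all lay above, as in 9.84%. With the array set as a term 0 of the 5 passed by limma (0 had an unadjusted p under 0.05), and their median was 0.18 against -0.023 for all probe sets.

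Between water deprivation and food deprivation 0 of the 5 probe sets other than those of Dnmt3a passed by limma, where 1, Tet3 1378654_at, had an unadjusted p under 0.05. Of all probe sets 0.133% were higher and 0.0184% lower in water deprivation. The count was also 0 with the array set as a term (0 at an unadjusted p under 0.05), as for 0% of all probe sets. Dnmt3a 1384804_at was the member whose water-deprived arrays all lay above the food-deprived ones, as in 1.47% of all probe sets, a description only. On the array set itself, 2 of the 5 were lower in the high set (Dnmt1 and Tet3 1378654_at) and 0 higher, beside 6.44% lower and 9.49% higher over all probe sets.

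Across the 15 arrays the 2 probe sets of Dnmt3a had a Pearson r of 0.881, and 0.705 after the group means were removed. Dnmt3a 1384804_at and Tet3 1378654_at had an r of 0.845 (0.576 within groups), Dnmt3a 1384804_at and Dnmt1 0.677 (0.515), and Dnmt3a 1384804_at and Tet2 -0.616 (0.101). These correlations describe the arrays only, since all probe sets share the same pools, the groups and the array sets.

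The genes around the enzymes were counted from 5 lists by role, 73 genes in all, of which 56 were tested, 8 lay below the filter and 9 had no probe set of their own on the array. In food deprivation minus control 0 were higher and 4 lower, beside 3.12% higher and 2.62% lower of the 11510 genes tested by 1 probe set each. The median difference of the 56 was -0.037, against 0.027 for all genes. In water deprivation minus food deprivation 0 of the 56 passed, beside 0.133% higher and 0.0184% lower over all probe sets. With the array set as a term 0 passed in food deprivation minus control, as for 0% of all probe sets. In that fit 3 of the 4 called genes turned sign, each to a value smaller than its SE, so no direction is read from them.

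Among partners and recruiters of the methyltransferases, 2 of 12 tested genes were lower in food deprivation. Usp7, a deubiquitinase that binds and stabilises Dnmt1, averaged 90.6 ± 11.6 in food deprivation and 218 ± 41.2 in control (SD, n = 5 each), a difference of -1.13 (SE 0.24, limma adjusted p = 0.0113). Its other probe sets were lower as well, by -1.05 and -0.55, but with the array set as a term the difference was 0.017 (SE 0.23). The high set was lower than the low set on Usp7 by -1.14. Ehmt1, a histone H3 lysine methyltransferase, averaged 103 ± 10.9 in food deprivation and 155 ± 15.8 in control (-0.52, SE 0.15, limma adjusted p = 0.0452). With the term its difference was 0.13 (SE 0.17). Uhrf1, which recruits Dnmt1 to newly replicated DNA, lay below the filter.

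Of the methyl-CpG readers and CpG-binding proteins, counted as 1 list, 1 of 13 was lower, Mbd6. This gene is listed for its methyl-CpG-binding domain, and whether its protein binds methylated DNA was not measured here. It read 73.9 to 111 in food deprivation and 100.1 to 138 in control (-0.44, SE 0.13, limma adjusted p = 0.0409), and its difference was -0.052 with the array set as a term. Of the genes of demethylation and base excision repair, 1 of 11 was lower, Xrcc1, the scaffold of single-strand break repair. It averaged 87.3 ± 9.85 in food deprivation and 163 ± 24.9 in control (-0.79, SE 0.18, limma adjusted p = 0.0193). Its difference was 0.059 with the term (SE 0.19) and -0.84 between the high and the low set.

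The genes that supply methyl donors and those of the corepressor complexes had 0 calls of 12 and of 8 tested. The methyl donor genes with the smallest p were Shmt2, mitochondrial serine hydroxymethyltransferase (-0.37, limma adjusted p = 0.0823), and Mat2b, a regulatory subunit of methionine adenosyltransferase (0.24, limma adjusted p = 0.183). Those of the corepressors were Chd4, the remodeller of the NuRD complex (0.34, limma adjusted p = 0.104), and Sin3a, a scaffold of histone deacetylase complexes (-0.38, limma adjusted p = 0.226). Each gene was counted by its brightest probe set, and for Cxxc5, Kdm2a and Ncor1 another probe set passed where the counted one did not. The other Cxxc5 probe set was at -0.57 beside 0.044 for the counted one, that of Ncor1 at -1.06 beside 0.050, and those of Kdm2a at 0.32 and -0.75 beside 0.25.

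**Figure D4:**
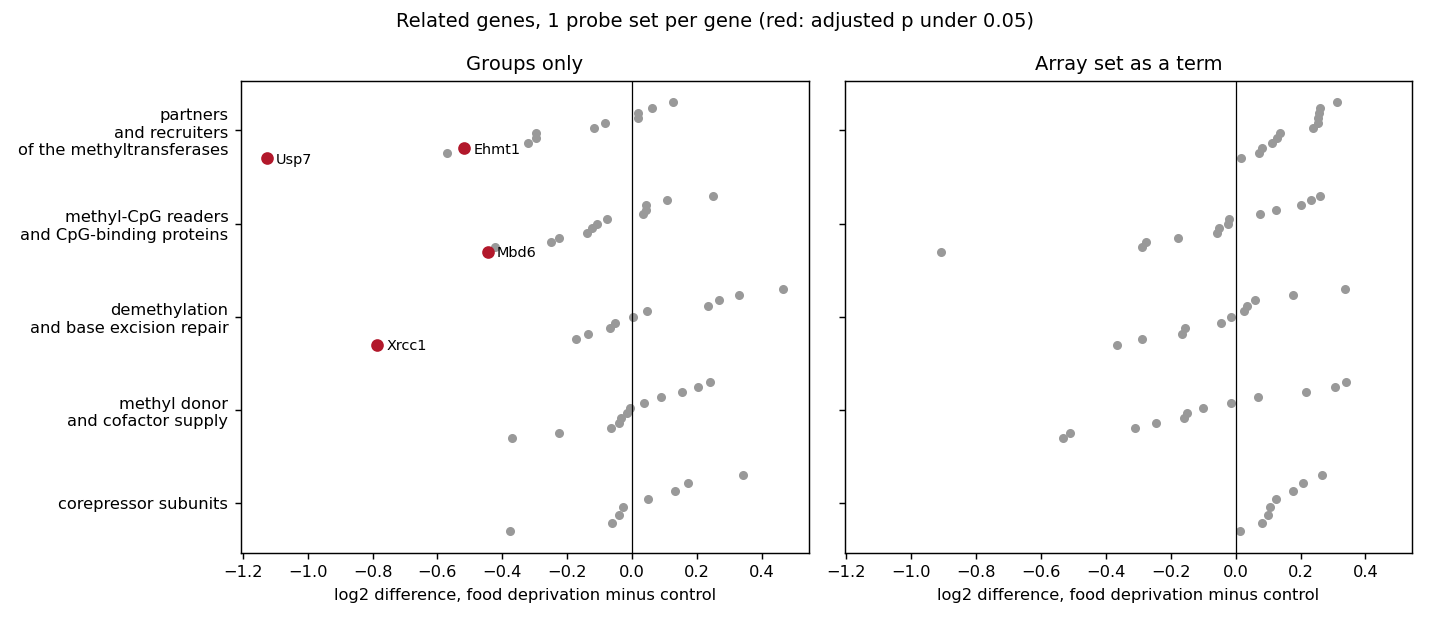
Log2 difference in food deprivation minus control of the tested genes of the 5 role lists, 1 point per gene by its brightest probe set, without the array set in the fit on the left and with it on the right; red named points passed and the line at 0 is no difference. The passing genes Usp7, Ehmt1, Mbd6 and Xrcc1 lie between -1.13 and -0.44, and on the right no gene passed.

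The genes whose signal followed Dnmt3a 1384804_at most closely over the 15 arrays, of 11509 genes searched, were Creb1, a cAMP-responsive transcription factor (Pearson r 0.956), Evi5 (0.947), Dtna, a dystrobrevin (0.939), Fgl2 (0.939) and Tlk1, a kinase (0.935). With the group means removed these were 0.818 for Creb1, 0.676 for Evi5, 0.801 for Dtna, 0.952 for Fgl2 and 0.852 for Tlk1. With the array sets removed too, they were 0.680 for Creb1, 0.496 for Evi5, 0.631 for Dtna, 0.933 for Fgl2 and 0.721 for Tlk1. The most opposite were Slc25a4, a mitochondrial ADP/ATP carrier (-0.943, and -0.421 with groups and sets removed), Wtap, a subunit of the RNA adenosine methyltransferase complex (-0.940 and -0.402), and C3h9orf50 (-0.936 and -0.473). All points share the 15 pools and the array sets, and no p is attached to these correlations.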

How the data were processed

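The deposited table holds 1 signal intensity per probe set and array, scaled per array; GCOS 1.2 is named without a role in the submitters' processing notes. Detection calls were not used here. Probe sets were named from the platform annotation given: 20832 carried 1 symbol, 436 several and 9780 none. From the deposited intensities, log2(signal + 16) was taken and probe sets with a mean above its 30th percentile (5.11) were kept, 21729 of 31099. limma 3.58.1 in R 4.3.3 was fitted over all of them (lmFit, eBayes with trend, 3 group means, 12 residual degrees of freedom), two-sided, with Benjamini-Hochberg adjustment at 0.05. On simulated data the fit called 82 of 100 changes of 1 log2 unit and 99 of 100 of 2 units, with 17 false calls. The simulation held no array sets, so it does not cover their separation of food-deprived from control arrays. A further fit added the array set, divided at a mean log2 ratio of -1 (11 degrees of freedom).

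Members, gene lists, markers and the array sets were chosen with earlier results of these data known. Named were all member probe sets, the passing genes of each list (the 2 with the smallest p where none passed), and the genes with the 5 highest and 3 most negative Pearson r. Each array is a pool, so p-values measure the spread between pools. The array correlations ran from 0.835 to 0.981, with 0 identical arrays. Alternatives covered the offset, filter, scaling, array weights, variance trend, 10 arrays per contrast, the array set or 5′/3′ ratio, the replicate block and each array left out. Promoter windows came from RefSeq (GRCr8), for 5 of the 6 genes. Figures were drawn with matplotlib 3.10.9.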

Additional observations from a re-analysis of the deposited data

Results flagged for a closer look

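Of 27 groups of 5 arrays examined over the 9 probe sets, 2 held an array whose gap to the nearest other, as a share of the group's range of log2 values, exceeded Dixon's critical value of 0.71, and chance gives about 1 in 20 groups. On Tet1 1386026_at, water-deprived array 1 (signal 69.2) had a gap share of 0.714. On Dnmt3a 1392678_a_at, food-deprived array 2 (signal 13.3) had a gap share of 0.857, below the other 4 food-deprived arrays. No cause was tested for either.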

How the results depend on the processing

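The count of enzyme probe sets lower in food deprivation than in control, 3 of 7 including both of Dnmt3a, was 3 in each fit that left out 1 array (lowest 3, highest 3) and 3 with the replicate block. It was 1 with the filter at the 50th percentile, where the second Dnmt3a and the called Tet3 probe set were no longer tested, 1 with the 5′/3′ ratio as a covariate and 0 with the array set; 4 passed with array weights, Dnmt1 being added (-0.32). The replicate numbers did not pair the arrays (correlations of deviations -0.24 to 0.19 in food deprivation and control). The related-gene count of 4 was 15 with array weights, 10 with the 10 arrays of the contrast alone, 2 with the replicate block, 0 with the array set, 0 with the ratio and 2 to 5 with 1 array left out (2 without food-deprived array 2, 3, 4 or 5 or control array 1, 3, 4 or 5). Dnmt3a in food deprivation minus control, with 1 array left out, was -1.76 to -1.66 for 1384804_at and -1.07 to -0.90 for 1392678_a_at; an offset of 64 gave -0.97 and -0.57, and of 1 gave -2.30 and -1.41. With the array set they were -1.04 and -0.23, and with the ratio -1.39, which passed, and -0.78. These Dnmt3a values are no independent test of the gene, since it was chosen on the same control arrays. Tet3 1378654_at, -1.41, was -1.61 to -1.32 with 1 array left out, -0.65 and -2.45 with those offsets and -1.08 with the ratio (limma adjusted p = 0.0662). In water deprivation minus food deprivation, Dnmt3a 1384804_at was 0.88 with array weights and 0.52 to 0.77 with 1 array left out, as a description. Tet3 1378654_at passed there without water-deprived array 1 (1.14) or 2 (1.17) and with array weights. The member count, which includes Dnmt3a and is no test of it, was 0 to 2 with 1 array left out and 2 with array weights. Values that turned sign with the array set were Dnmt1 (0.18), Tet1 (-0.072) and Tet3 1397558_at (0.29) in food deprivation minus control, and Dnmt1 (-0.19), Dnmt3a 1392678_a_at (-0.38) and Tet3 1397558_at (-0.12) in water deprivation minus food deprivation. With the ratio water deprivation minus food deprivation gave -0.074 for Dnmt1 and -0.11 for Dnmt3a 1392678_a_at. With 1 array left out it gave -0.061 to 0.23 for Dnmt3a 1392678_a_at, -0.00046 to 0.19 for Dnmt1 and -0.052 to 0.0054 for Tet2, and Tet2 was 0.070 with median centring and 0.034 with array weights. Median centring moved the median of all probe sets by 0.10, to -0.055, and split the food-deprivation calls 652 higher to 1179 lower, and quantile normalization 815 to 972, against 1037 to 817 as deposited; the 3 member calls stayed lower in each. Except where an alternative tested fewer probe sets or arrays, the cause was not tested. Dim signals limit Dnmt3b and Tet3 1380493_at.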
